A study of Homo sapiens with 6 samples.

Results

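The genes described here encode MHC class I molecules and the proteins that load them with peptide: HLA-B, HLA-C, HLA-E, HLA-F, HLA-G, B2M, TAP1, TAP2 and TAPBP. They were taken by gene symbol from a list that was chosen with earlier results of these data known. They make up 9 of the 58395 gene rows in the count files. Each symbol had 1 gene identifier, so no choice among identifiers arose. RNA was measured in 6 clonal lines of HEK293, an established human embryonic kidney line that carries adenovirus DNA with the E1A and E1B genes. GST lines 2, 8 and 9 overexpressed GST-3F, the control protein, and NOCT lines 4, 11 and 12 overexpressed NOCT ∆(2-15)-3F, a nocturnin that lacks residues 2 to 15. The labels name no other genetic change in the 6 lines, and the promoter that drives either construct is not given in the sources used here. Each line is 1 clone, grown for 3 days before harvest, so the 3 lines of a group are 3 clones.

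A class I molecule is a heavy chain, such as HLA-B or HLA-C, held together with the light chain beta-2-microglobulin (B2M) and a short peptide. The proteasome cuts proteins into peptides, the TAP1 and TAP2 subunits form the transporter that carries them into the endoplasmic reticulum, and tapasin (TAPBP) bridges the transporter to empty class I molecules. HLA-E presents peptides cut from the leader sequences of other class I chains to receptors of natural killer cells, HLA-F can reach the surface without peptide, and HLA-G is known from placental trophoblast. Transcription of most of these genes is controlled by NLRC5 with RFX and NF-Y factors, and by interferon through IRF and STAT factors.

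Upstream DNA is shown for the heavy chain genes HLA-B and HLA-C, for their light chain B2M and for TAP2, the gene with the largest difference between the groups, because these are the genes whose levels are described most fully here. RefSeq promoter windows (GRCh38.p14) were matched for 8 of the 9 genes, and HLA-E had no entry. Windows were trimmed to the bases before any annotated exon and are printed 5′ to 3′ on the strand of the gene. HLA-B lies on the minus strand (chr6:31357189-31357429), as do HLA-C (chr6:31272131-31272342) and TAP2 (chr6:32838781-32838989), and B2M lies on the plus strand (chr15:44711267-44711486). Capitals mark matches, on either strand, to 5 short motifs that are described next.
HLA-B: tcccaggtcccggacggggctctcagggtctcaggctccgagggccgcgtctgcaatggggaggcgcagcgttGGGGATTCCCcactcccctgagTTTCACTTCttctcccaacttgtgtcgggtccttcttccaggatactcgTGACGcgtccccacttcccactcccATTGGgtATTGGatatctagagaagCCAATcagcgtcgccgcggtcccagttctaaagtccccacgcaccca
HLA-C: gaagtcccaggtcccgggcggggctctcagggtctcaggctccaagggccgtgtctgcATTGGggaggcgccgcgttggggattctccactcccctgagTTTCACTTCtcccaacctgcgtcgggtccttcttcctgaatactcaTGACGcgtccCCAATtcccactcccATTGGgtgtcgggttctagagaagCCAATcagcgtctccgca
TAP2: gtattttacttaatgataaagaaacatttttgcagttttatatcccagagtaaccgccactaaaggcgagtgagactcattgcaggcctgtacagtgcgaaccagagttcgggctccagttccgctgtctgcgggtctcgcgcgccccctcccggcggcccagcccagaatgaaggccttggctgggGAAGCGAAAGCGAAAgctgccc
B2M: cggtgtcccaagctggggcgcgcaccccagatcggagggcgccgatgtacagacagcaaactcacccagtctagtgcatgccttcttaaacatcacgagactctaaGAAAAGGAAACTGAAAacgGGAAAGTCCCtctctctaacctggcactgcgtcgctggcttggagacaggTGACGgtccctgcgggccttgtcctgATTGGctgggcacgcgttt

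The motifs were an interferon-response element written GAAA, any 2 bases, GAAA (ISRE), a form shorter by 1 base (GAA, any 2 bases, GAAA), an NF-kB site (GGG, any 2 bases, TT, any base, CC), the core of a cyclic AMP element TGACG, and CCAAT, to which NF-Y binds. Overlapping matches were each counted. The search used the whole 250 bases upstream of each start, also where these lie in an annotated exon and are not printed, as for TAP1, TAPBP and part of the HLA-F window. Over 35116 windows of 250 bases upstream of a RefSeq start, 3.02% held the ISRE, 6.56% the shorter form, 5.07% the NF-kB site, 21.2% TGACG and 32.0% CCAAT. The ISRE letters were found upstream of B2M (2 overlapping matches), TAP1 (2), TAPBP (2), TAP2 (1) and HLA-F (1), while HLA-B and HLA-C held the shorter form once each. In TAP2 both forms were present and overlapped. The NF-kB letters were found in HLA-B, B2M, TAP1 and TAPBP, and not in the HLA-C window. The full 250-base windows of HLA-B and HLA-C were 89.0% identical (226 of 254 aligned columns), and each held TGACG followed by CCAAT letters nearer the start site. A match describes letters in the reference and does not show that a factor bound there.

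Of the 9 genes, 8 lie in the MHC on the short arm of chromosome 6 and B2M lies on chromosome 15 (GENCODE 29, GRCh38). Counting used unique alignments, so the share of each transcript that another gene repeats bears on the counts. Of the 50-base windows along the principal transcript, the share found at another place in the annotated transcripts was 6.71% for HLA-C, 6.68% for TAPBP, 5.76% for HLA-E, 4.58% for HLA-G, 2.67% for HLA-B, 2.02% for HLA-F, 1.20% for TAP1, 0.550% for TAP2 and 0 for B2M. HLA-B and HLA-C share only 35 exon bases in the annotation. TAP2 is different: 2064 of its 6390 exon bases (32.3%) are also exon bases of the gene AL669918.1 on the same strand, which had 0 counts in all 6 libraries. As AL669918.1 was among the counted genes, the authors' annotation held both. Reads there could not be assigned to either gene if their exons overlapped there as in GENCODE 29. How reads from HLA alleles that differ from the reference were aligned was not tested.

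Libraries held 19729745 to 21420849 gene counts in the GST lines and 20124376 to 24422406 in the NOCT lines. Construct rows matched the labels: the GST construct row had 46 to 88 counts in GST lines and 0 or 1 in NOCT lines, and the NOCT construct row had 46 to 82 counts in NOCT lines and 3 to 7 in GST lines. Across all genes, edgeR's quasi-likelihood test called 10 of 17261 tested genes at an adjusted p of 0.05, and the DESeq2 test called 508. NOCT line 12 stood apart: without it, edgeR called 970 genes, and without GST line 9 it called 0 (1488 at an unadjusted p under 0.05, and 146 by DESeq2). Leukocyte markers, which would mark another source of MHC RNA, summed to 0.813 to 1.62 TPM in GST lines and 0.599 to 1.47 TPM in NOCT lines over 8 genes, with CD3E at 0 in all libraries. Of 10 listed HEK293 features, VIM, KRT8, KRT18, CDH2 and NEFL had means of at least 60 CPM in both groups, PAX8 was nearly absent (0.0328 and 0.0150 CPM), and NEFM was untested. Of the 8 tested, none was called by edgeR and 5 had an unadjusted p under 0.05 (13.9% of all genes tested did). DESeq2 called 3 (3.41% of all genes with an adjusted p): the kidney factor PAX2 (4.76 CPM in GST and 1.08 in NOCT lines), EYA1 (13.9 and 27.7) and KRT8 (85.9 and 186). Of 4 fibroblast and 4 endothelial markers, COL1A1 (10.1 and 17.2 CPM), LUM (0.503 and 0.919) and KDR (2.76 and 0.707) were tested and none was called by edgeR or, where it gave an adjusted p, DESeq2. These markers moved with the groups in part, and their part in the differences of the class I and loading genes was not tested. As in any bulk library, fewer cells carrying an RNA and less of it per cell cannot be told apart.

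Of the 9 genes, 8 passed the filter on low counts and none of the 8 was called by edgeR, where 0.0579% of all tested genes were called. Unadjusted p-values were under 0.05 for 3 of them (TAP2, HLA-F and HLA-C), against 13.9% of all genes tested. DESeq2 called 1 of the 8, TAP2, against 3.41% of all genes with an adjusted p. Groups did not overlap for 3 of the 8: HLA-F and B2M were higher in every NOCT line (10.5% of all genes) and TAP2 was lower in every NOCT line (9.54%). The median log2 fold change of the 8 was 0.14, beside 0.00 over all genes tested. An exact permutation test of a single gene in 3 lines against 3 cannot give a p below 0.1.

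**Figure D1:**
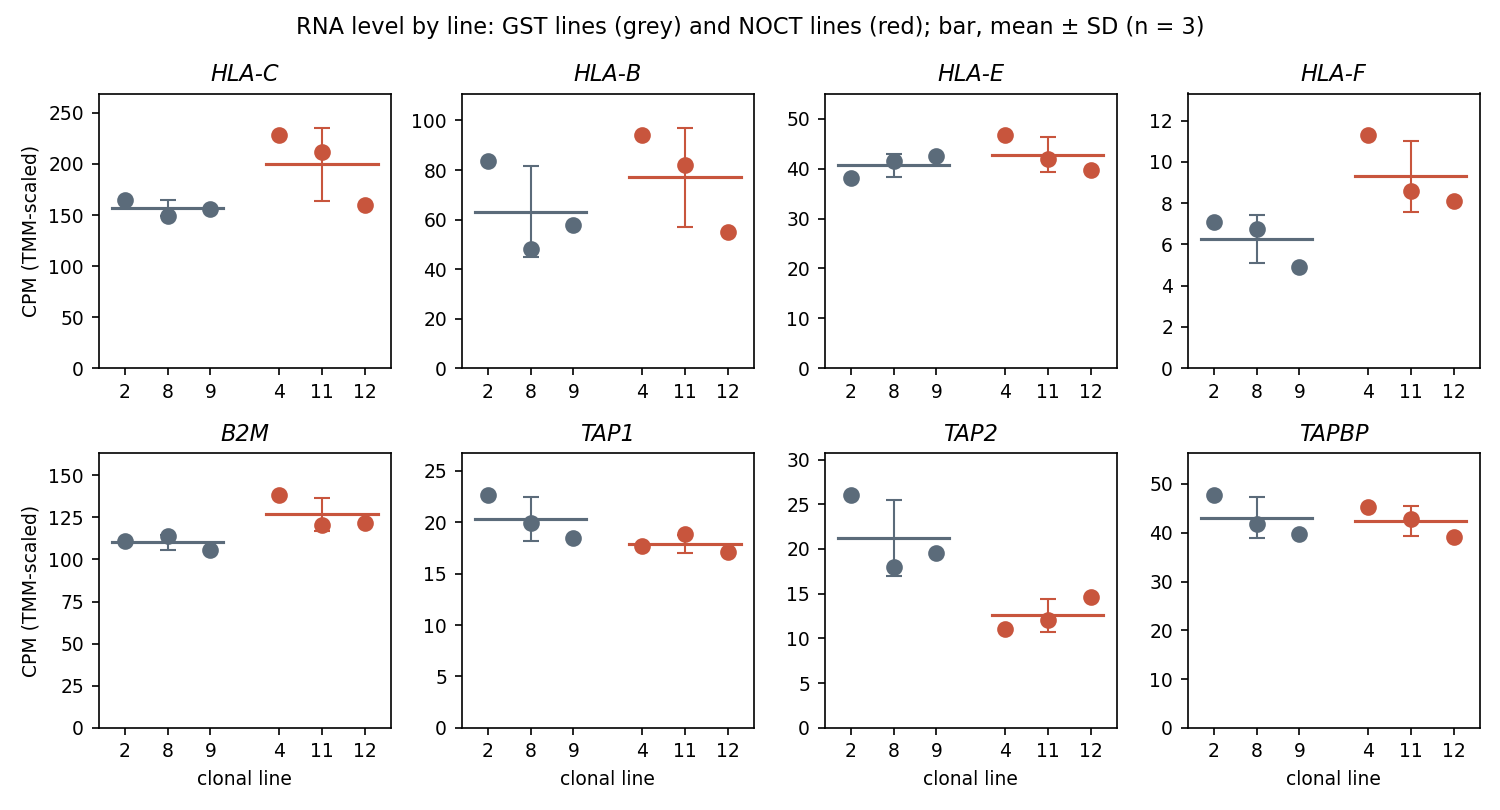
Each panel plots the RNA level of 1 gene (y axis, CPM, from 0) in each clonal line (x axis), with horizontal bars at the group mean and error bars of 1 SD (n = 3). HLA-F and B2M sit higher in every NOCT line than in any GST line, and TAP2 sits lower in every NOCT line. HLA-C is high in NOCT lines 4 and 11 but not in NOCT line 12. HLA-B is high in NOCT lines 4 and 11 and also in GST line 2.

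HLA-C, a classical heavy chain whose product is a ligand of killer-cell immunoglobulin-like receptors, was the most abundant of the genes. In CPM, which are counts relative to the TMM-scaled library size, its level was 165, 149 and 156 CPM in GST lines 2, 8 and 9, and 228, 212 and 160 CPM in NOCT lines 4, 11 and 12. The GST lines lay close together, NOCT lines 4 and 11 lay above all of them, and NOCT line 12 fell inside the GST range. Relative to the GST mean, the NOCT lines stood at 1.46, 1.35 and 1.02 times. The means were 157 ± 7.93 and 200 ± 35.7 CPM (SD, n = 3 each), for a log2 fold change of 0.35 (SE 0.14, 95% interval 0.04 to 0.67), which did not pass the edgeR test (adjusted p = 0.302). Without NOCT line 12 the difference passed, with a log2 difference of 0.49 (adjusted p = 0.0254 by edgeR, where 5.42% of genes were called).

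HLA-B, the other classical heavy chain, had the highest coefficient of variation among the GST clones of the 8 tested members. Its level was 83.5, 48.0 and 57.9 CPM in GST lines 2, 8 and 9, and 94.0, 82.2 and 55.1 CPM in NOCT lines 4, 11 and 12. High and low lines occurred in both groups: GST line 2 lay with NOCT lines 4 and 11, and NOCT line 12 lay with GST lines 8 and 9. The coefficient of variation among GST lines was 29.01%, against 5.07% for HLA-C and a counting error of at most 3.11%. The log2 fold change of 0.29 (SE 0.24, 95% interval -0.27 to 0.85) did not exceed this spread (edgeR adjusted p = 0.628).

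HLA-B and HLA-C lie next to each other, and their counts did not keep 1 ratio. HLA-C counts per HLA-B count were 1.97, 3.10 and 2.70 in GST lines 2, 8 and 9, and 2.43, 2.58 and 2.90 in NOCT lines 4, 11 and 12. The lowest and the highest ratio were both in GST lines, so the groups overlapped. As a description over the 6 lines, the correlation of their log2 CPM was 0.84.

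B2M, the light chain of all the heavy chains, lies on another chromosome, and its GST and NOCT lines did not overlap. Its level was 111, 114 and 106 CPM in GST lines 2, 8 and 9, and 138, 121 and 122 CPM in NOCT lines 4, 11 and 12. Every NOCT line was higher than every GST line, with NOCT line 4 the highest, and NOCT line 12 did not fall back as it did for HLA-B and HLA-C. The means were 110 ± 4.31 and 127 ± 9.83 CPM (SD, n = 3 each), 15.2% apart, for a log2 fold change of 0.20 (SE 0.09, 95% interval -0.01 to 0.42) that did not pass the edgeR test (adjusted p = 0.373).

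HLA-F had the largest positive log2 fold change of the genes, and the fewest counts in total of the 8 that were tested. Its level was 7.08, 6.74 and 4.92 CPM in GST lines 2, 8 and 9 (100 to 145 counts), and 11.3, 8.57 and 8.08 CPM in NOCT lines 4, 11 and 12 (161 to 287 counts). All NOCT lines lay above all GST lines. The log2 fold change was 0.58 (SE 0.22, 95% interval 0.08 to 1.08), and it did not pass the edgeR test (adjusted p = 0.294). Counting error alone came to 10.0% in GST line 9, which had the fewest HLA-F counts, beside a coefficient of variation of 18.6% among GST lines.

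HLA-E varied little. It stood at 38.1, 41.6 and 42.4 CPM in GST lines 2, 8 and 9, and at 46.7, 41.9 and 39.8 CPM in NOCT lines 4, 11 and 12. Only NOCT line 4 lay outside the GST range. The log2 fold change was 0.07, with a 95% interval of -0.17 to 0.31 (edgeR adjusted p = 0.793), and it was -0.00091 without NOCT line 4.

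HLA-G was at the detection limit. It had 1 count in GST line 9, 1 in NOCT line 12 and 0 in the other 4 libraries. A count of 0 allows up to 3 counts, which is 0.118 to 0.158 CPM in these libraries, so no difference could be measured at this depth. These limits cover counting error only.

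TAP2, a subunit of the peptide transporter, had the largest difference of the genes, and in the direction opposite to the heavy chains and B2M. Its level was 26.0, 18.0 and 19.5 CPM in GST lines 2, 8 and 9 (388 to 493 counts), and 11.1, 12.1 and 14.7 CPM in NOCT lines 4, 11 and 12 (269 to 292 counts). Every NOCT line was below every GST line, with NOCT line 12 the nearest to them. The means were 21.2 ± 4.26 and 12.6 ± 1.85 CPM (SD, n = 3 each), so the NOCT mean was 40.5% below the GST mean. The log2 fold change was -0.75 (SE 0.18, 95% interval -1.18 to -0.32).

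Whether TAP2 was called depended on the tool, the filter and the lines. It did not pass the edgeR test (adjusted p = 0.181), where its rank was 336 among 17261 genes. It passed edgeR without a filter on low counts (adjusted p = 0.0147), where 2.57% of genes were called, and the DESeq2 test on the same counts (log2 fold change -0.76, adjusted p = 0.0129). The DESeq2 call was lost in 4 of 6 fits that each left out 1 line (without GST line 2 or 9, or NOCT line 4 or 11), with adjusted p-values of 0.0896 to 0.143 and log2 fold changes of -0.81 to -0.59. In the authors' deposited table, a DESeq2 comparison with shrunken fold changes, its log2 fold change was -0.64, with an adjusted p of 0.0130, where 2.87% of genes passed. A log2 fold change of this size or larger, in either direction, was found for 7.27% of all genes tested.

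TAP1, the partner subunit, had groups that overlapped. TAP1 stood at 22.7, 19.9 and 18.4 CPM in GST lines 2, 8 and 9, and at 17.7, 18.8 and 17.1 CPM in NOCT lines 4, 11 and 12. NOCT line 11 lay above GST line 9, and GST line 2 was the highest. Its log2 fold change was -0.18 (SE 0.13, 95% interval -0.49 to 0.12), which did not pass the edgeR test (adjusted p = 0.568).

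Counts of the transporter subunits can be compared within each library, where library scaling cancels. Gene length does not cancel (principal transcripts of 2959 bases for TAP1 and 5684 for TAP2). A ratio near 1 therefore does not mean equal levels, and only its change between lines is read here. TAP1 counts per TAP2 count were 0.870, 1.10 and 0.945 in GST lines 2, 8 and 9, and 1.60, 1.56 and 1.164 in NOCT lines 4, 11 and 12. All NOCT lines lay above all GST lines, narrowly so for NOCT line 12. HLA-C counts per TAP2 count separated further, at 6.32, 8.25 and 8.00 in the GST lines against 20.6, 17.6 and 10.9 in the NOCT lines. These ratios were computed after the single genes had been seen and were given no test.

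**Figure D2:**
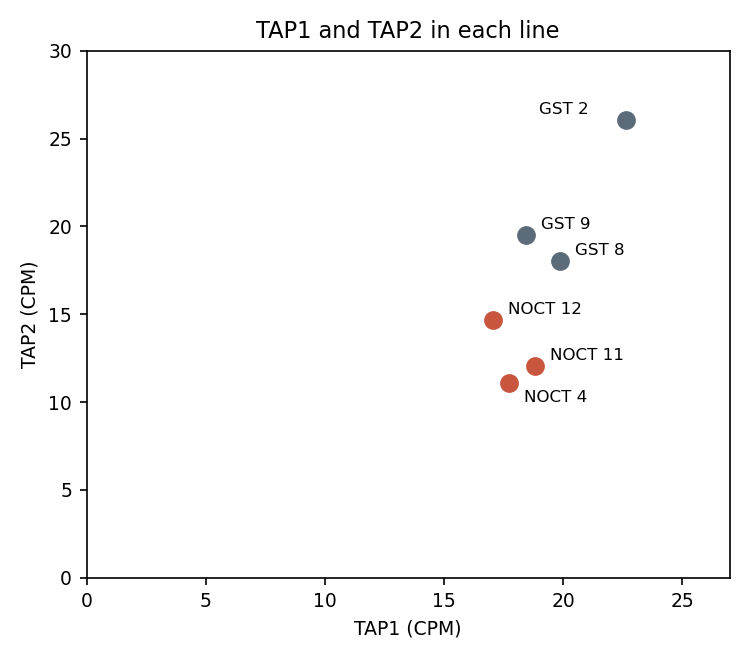
Each point is 1 line, with TAP1 on the x axis and TAP2 on the y axis (CPM, both from 0), grey for GST and red for NOCT. TAP1 spans 17.1 to 22.7 CPM with groups that overlap, while TAP2 spans 11.1 to 26.0 CPM with the NOCT lines below the GST lines.

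TAPBP, the tapasin gene, had the estimate nearest to 0 of the 8. It stood at 47.7, 41.8 and 39.7 CPM in GST lines 2, 8 and 9, and at 45.3, 42.8 and 39.2 CPM in NOCT lines 4, 11 and 12. The lines of the groups interleaved. The log2 fold change was -0.02, with a 95% interval of -0.28 to 0.24 (edgeR adjusted p = 0.952), and its sign changed when spike-in totals set the scale (0.13).

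**Figure D3:**
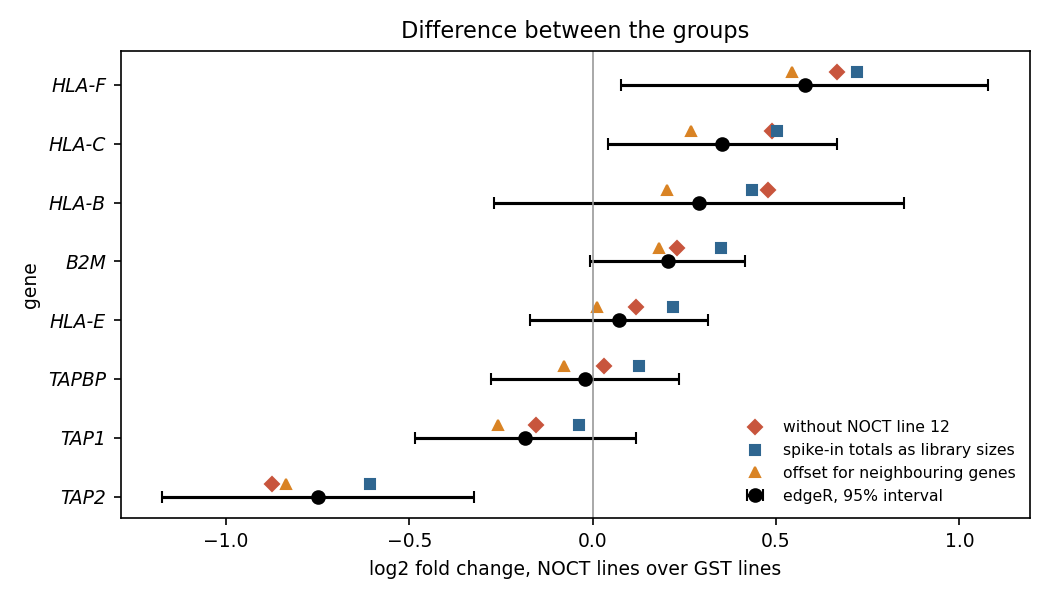
The x axis gives the log2 fold change of NOCT lines over GST lines for the 8 tested genes (y axis): black points with bars are the edgeR estimate and its 95% interval, and coloured marks are the estimates without NOCT line 12, with spike-in scaling and with an offset for neighbouring genes. TAP2 stays between -0.87 and -0.61 in these fits, and HLA-C moves from 0.35 to 0.49 without NOCT line 12.

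Levels of different genes were compared per length, with the deposited TPM, which is a count per length scaled to the same total in every library. The mean over the 6 lines was 206 ± 47.8 TPM for HLA-C, 66.4 ± 19.6 for HLA-B, 56.2 ± 8.08 for B2M, 40.5 ± 4.71 for HLA-E, 24.3 ± 2.25 for TAPBP, 11.4 ± 0.938 for TAP1, 7.51 ± 2.12 for TAP2 and 5.20 ± 1.67 for HLA-F (SD, n = 6). HLA-C exceeded HLA-B in 6 of 6 lines without overlap, HLA-E exceeded TAPBP, and TAPBP exceeded TAP1 in the same way. The ranges of HLA-B and B2M overlapped, and their order held in 4 of 6 lines. Ranges also overlapped for B2M and HLA-E, for TAP1 and TAP2, and for TAP2 and HLA-F. The TAP2 length includes the 32.3% of its exon bases that are shared with AL669918.1. If reads there went uncounted, the TAP2 value is too low, and its place below TAP1 is uncertain.

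The order of B2M depended on the gene length behind the TPM. The deposited values match a length that counts every annotated exon base, which is 6079 bases for B2M, while its principal transcript has 1705. With principal transcript lengths, an alternative added after seeing the data, B2M came to 160 ± 21.5 TPM and stood above HLA-B (105 ± 30.3) in 6 of 6 lines, below HLA-C (265 ± 59.3). HLA-F, at 11.0 ± 3.43 TPM, then stood above TAP2 at 6.77 ± 1.97, in 4 of 6 lines. Of the 50-base windows of that TAP2 transcript, 35.8% also lie in another gene at the same place and strand. If reads there went uncounted, the TAP2 value is too low and this order is uncertain. Differences between the groups within a gene do not depend on its length, apart from the rescaling of each library's total.

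**Figure D4:**
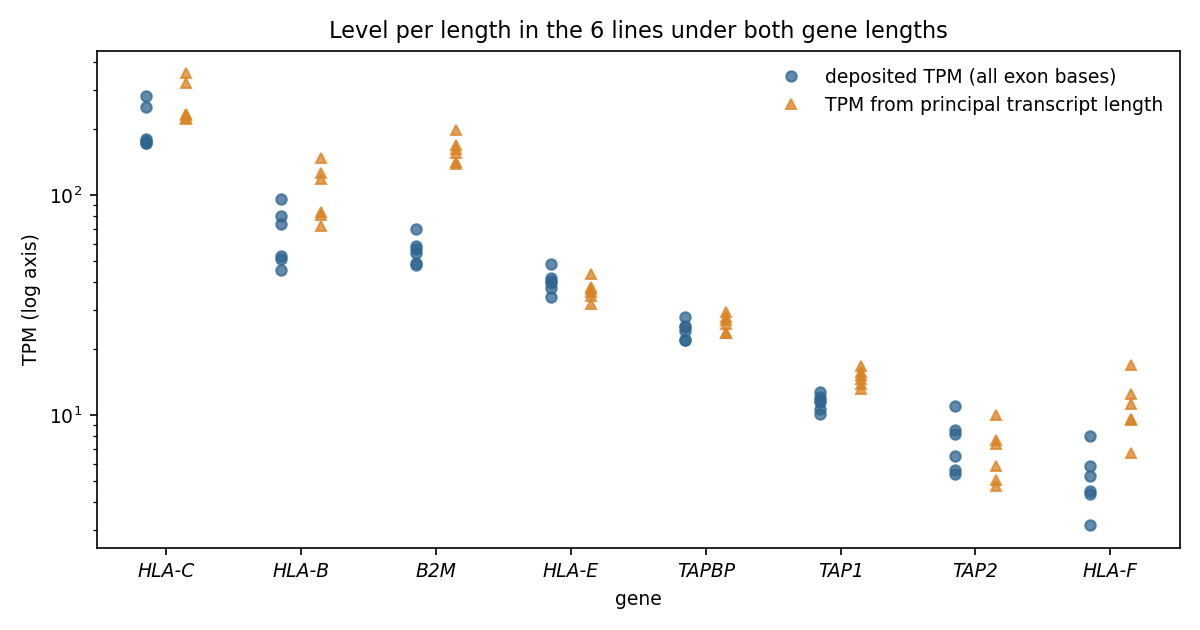
Points give the TPM of each gene (x axis) in each of the 6 lines on a log axis (y axis), as deposited (circles) and recomputed from principal transcript lengths (triangles). B2M moves most, from a mean of 56.2 to 160 TPM, and so passes HLA-B.

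Over the 6 lines, the log2 CPM of HLA-F and B2M were most alike (Pearson correlation 0.96), and B2M and TAP2 were most opposed (-0.83). TAP1 and TAP2 correlated at 0.76. These values are descriptions over 6 libraries that fall into the study's groups. Among 11320 other genes with at least 5 CPM, the closest to HLA-B were SSH3 (1.00), DHX35 (0.99) and SLC9A8 (0.99), and the closest to HLA-C were SNX5 (1.00), ITCH (0.99) and SPECC1 (0.99). Of these 6, DHX35, SLC9A8, SNX5 and ITCH lie on chromosome 20, SSH3 on 11 and SPECC1 on 17. The closest to HLA-E were IFT122, DENND4B and ACOX3, and the closest to B2M were PAM, PPWD1 and PC. The genes named are few of those with a correlation over 0.9. Of the 11320, 331 passed that level for HLA-B (2.92%), 489 for HLA-C (4.32%), 169 for HLA-E (1.49%) and 180 for B2M (1.59%). Chromosome 20 held 39 of the 331 (11.8%), 75 of the 489 (15.3%), 9 of the 169 (5.33%) and 3 of the 180 (1.67%), beside 290 of all 11320 genes compared (2.56%). This count was made after seeing the closest genes, and genes of 1 chromosome are not independent.

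The region of chromosome 6 from the start of HLA-F (29722775) to the end of TAPBP (33314387) is 3.59 Mb long and held 115 tested genes besides the 7 tested members. Of the 115, 1 was called higher by edgeR (MICB) and none lower, and 20 had an unadjusted p under 0.05 (13.9% of all genes tested did). DESeq2 called 8 higher and none lower (3.41% of all genes with an adjusted p, in either direction), and the median log2 fold change was 0.13. Groups did not overlap for 21 that were higher (10.5% of all genes tested were) and 3 that were lower (9.54%) in NOCT lines. On the rest of chromosome 6, none of 825 tested genes was called by edgeR (108 at an unadjusted p under 0.05, and by DESeq2 19 higher and 5 lower), the median was 0.02, and 105 were higher and 43 lower without overlap. Among genes in the region outside the pathway lists, the smallest p-values belonged to NEU1, a lysosomal sialidase (49.5 ± 2.23 CPM in the GST and 81.8 ± 9.72 CPM in the NOCT lines, mean ± SD of 3; edgeR adjusted p = 0.0684, DESeq2 3.3e-05), to IER3, a stress-response gene (8.94 ± 1.04 and 27.9 ± 10.3 CPM, edgeR adjusted p = 0.0942, DESeq2 2.6e-06), and to HLA-DRB5, a class II chain (1.08 ± 0.388 and 2.96 ± 0.133 CPM, edgeR adjusted p = 0.131, DESeq2 0.0122). With an offset for the median deviation of neighbouring genes, the log2 fold change of TAP2 was -0.84 (adjusted p = 0.105 by edgeR) and that of HLA-C was 0.27.

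**Figure D5:**
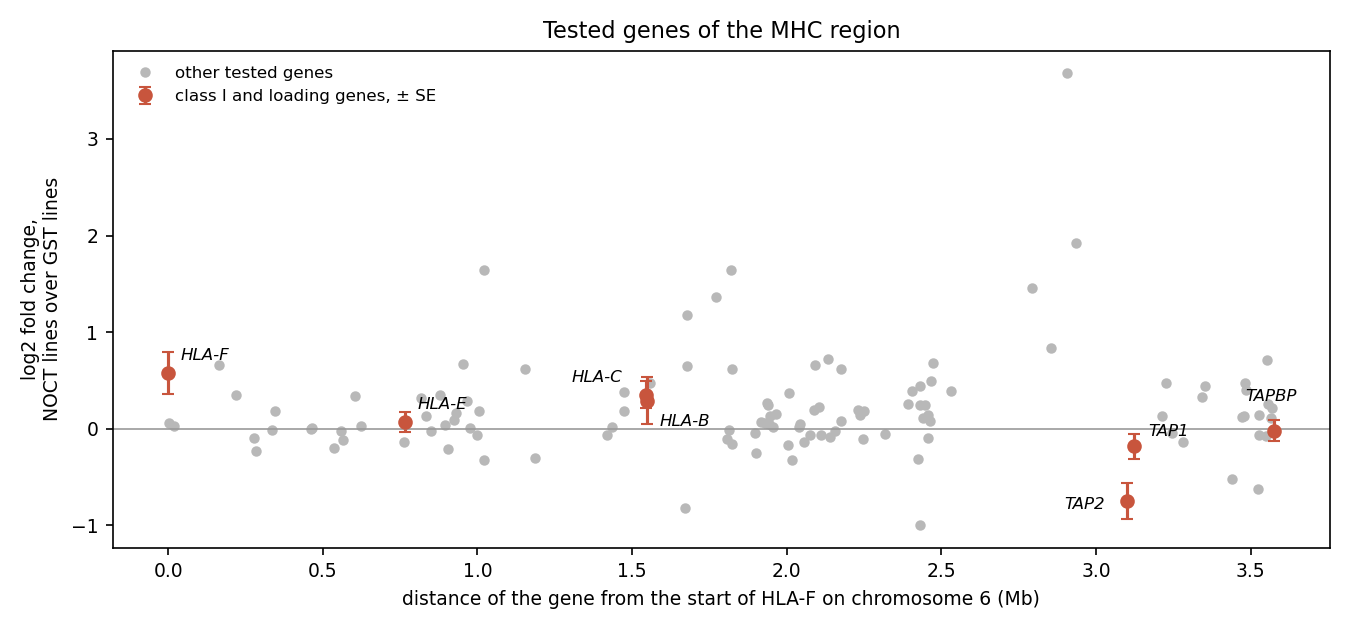
The x axis is the distance of each tested gene from the start of HLA-F (Mb) and the y axis its log2 fold change, NOCT lines over GST lines; grey points are other genes and red points with SE bars are the class I and loading genes. TAP2 at -0.75 and TAP1 at -0.18 sit side by side, and the heavy chain genes lie among neighbours whose median is 0.13.

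The partners of these genes were examined as lists. Of 9 genes for peptide loading and trimming, 8 were tested, none was called by edgeR, 4 had an unadjusted p under 0.05 (13.9% of all genes tested did) and 1 was called by DESeq2 (3.41% of all genes were). All 4 were higher in every NOCT line (10.5% of all genes were): CALR, the calreticulin chaperone (567 ± 25.6 and 754 ± 94.0 CPM, log2 fold change 0.41, edgeR adjusted p = 0.194, DESeq2 adjusted p = 0.0460), ERAP1, which trims peptides (0.40), DERL1, a channel component of the endoplasmic reticulum (0.35), and PDIA3, the disulfide isomerase of the loading complex (0.28). The list's median log2 fold change was 0.19.

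Of 12 proteasome genes, 9 were tested and none was called by edgeR or DESeq2. The immunoproteasome subunits PSMB8, PSMB9 and PSMB10 were too low to test, at means of 0.154 to 0.388 CPM in GST lines and 0.213 to 0.509 CPM in NOCT lines. The constitutive subunits PSMB5, PSMB6 and PSMB7 had means of 78.7 to 95.5 CPM in GST lines and 75.4 to 78.1 CPM in NOCT lines. Among the 9 tested genes, the smallest p-values were those of PSMB7 (log2 fold change -0.34), PSMA1 (-0.21) and PSMA3 (0.16). The list's median was -0.03 and 1 gene had an unadjusted p under 0.05 (13.9% of all genes tested did). PSMB7 and PSMA1 were lower in every NOCT line (9.54% of all genes tested were), and 0 genes were higher in every NOCT line (10.5%).

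Of 18 regulators of class I transcription, 17 were tested and none was called by edgeR or DESeq2. An unadjusted p under 0.05 was found for 1 (13.9% of all genes tested had one). Groups did not overlap for 2 that were higher (10.5% of all genes tested were) and 1 that was lower (9.54%) in NOCT lines. NLRC5, the class I transactivator, was at 5.94 ± 3.67 CPM in the GST and 7.38 ± 5.20 CPM in the NOCT lines, a spread wider than its difference. The smallest p-values were those of RFX5, which binds the class I promoter with NLRC5 (65.8 ± 4.88 and 54.4 ± 4.35 CPM, log2 fold change -0.27), of the polycomb subunit SUZ12 (0.20) and of IRF2 (-0.31). Of 11 interferon signalling genes, all were tested and none was called by edgeR or DESeq2. An unadjusted p under 0.05 was found for 1 (13.9% of all genes tested had one). Log2 fold changes were 0.20 for IFNAR1, 0.20 for STAT2 and -0.36 for IFNAR2. IFNAR1 alone was higher in every NOCT line (10.5% of all genes tested were), and 0 genes were lower in every NOCT line (9.54%).

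Of 8 genes that encode class I-like proteins, 7 were tested and 5 had an unadjusted p under 0.05 (13.9% of all genes tested did). The same number were higher in every NOCT line (10.5% of all genes tested were). DESeq2 called 3 (3.41% of all genes with an adjusted p) and edgeR called 1 (0.0579% of all genes tested). MICB, a stress-induced ligand of the NKG2D receptor, rose from 11.6 ± 0.530 CPM in the GST lines to 29.8 ± 3.29 CPM in the NOCT lines (SD, n = 3 each). The log2 fold change was 1.36 (SE 0.13), with an adjusted p of 0.0173 by edgeR and 3.3e-14 by DESeq2. In the authors' deposited DESeq2 comparison, the adjusted p of MICB was 5.0e-13. Its edgeR call was lost on leaving out any of GST lines 2, 8 and 9 or NOCT line 11 (edgeR adjusted p = 0.0707 to 0.186), with log2 fold changes of 1.33 to 1.41. MICA, its neighbour and relative, differed by 0.65 on the log2 scale (adjusted p = 0.189 by edgeR, DESeq2 adjusted p = 0.0269), and PROCR, the protein C receptor, 1.04 (0.210 and 0.0434). MR1, which presents vitamin B metabolites, and FCGRT, the neonatal Fc receptor, were also higher in every NOCT line, by 0.41 and 0.56, and neither was called by edgeR or DESeq2. Of 9 class I pseudogenes, only HLA-H and HLA-L were tested. Neither was called by edgeR, DESeq2 did not call HLA-L, and DESeq2 gave HLA-H no adjusted p.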

How the data were processed

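Strand-specific, rRNA-depleted 50 bp RNA-seq libraries were made from 6 clonal HEK293 lines, 3 per group. The authors deposited whole-read counts per gene, with unique alignments counted. The submitters' processing notes name cutadapt 1.8.1, Trimmomatic 0.33, STAR 2.5.2b, HTSeq 0.6.1p1, DESeq2 1.16.1 and GRCh38, and the annotation release is not given in the sources used here. The authors also deposited TPM values, which match one length per gene that counts all exon bases, and a table with DESeq2 log2 fold changes and p-values, whose direction was read from the construct rows. The mean normalised count (a signal) and the test statistic (a score) in it were computed by the authors over all libraries.

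The 5 unnamed rows (42.9% to 47.1% of a file) were left out. Counts were fitted over all genes with edgeR 4.0.16 in R 4.3.3 (filterByExpr, TMM, quasi-likelihood test, Benjamini-Hochberg over 17261 genes, threshold 0.05), with standard errors from the F statistic. Intervals are unadjusted. Alternatives were DESeq2 1.42.0, limma 3.58.1 (voom, and trend on log2(TPM + 1) and log2(TPM + 0.1)), other scalings including spike-ins, other filters, a neighbour offset, and leaving out each line; the DESeq2 fits without a line and the principal transcript lengths were added after seeing the data. The code was tested on simulated data. The members and lists were chosen with earlier results of these data known. Text names all members, and of each list the called genes and at most the 3 with the smallest p; other genes of the lists were named after seeing their values.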

Additional observations from a re-analysis of the deposited data

How the results depend on the processing

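Directions of HLA-B, HLA-C, HLA-F, B2M, TAP1 and TAP2 were the same in all 16 alternatives. The number of genes called by edgeR, 10, became 508 with DESeq2, 16 with limma voom, 22 with spike-in totals (which put the all-gene median at 0.15), 888 without a filter and 37 with the neighbour offset. It ran from 0 to 970 when lines were left out, and was 553, 250 and 146 in the DESeq2 fits without GST line 2, 8 or 9, and 257, 386 and 1679 without NOCT line 4, 11 or 12. The count of called members, 0, became 1 with DESeq2 and 1 without a filter, and ran from 0 to 2 when lines were left out, also with DESeq2. TAP2 was called with DESeq2 (-0.76, adjusted p = 0.0129), without a filter (-0.76, edgeR adjusted p = 0.0147) and without NOCT line 12 (-0.87, adjusted p = 0.0350). Over all 16 alternatives its log2 fold change ran from -0.87 to -0.58 and its adjusted p from 0.0129 to 0.570. Leaving out lines gave -0.87 to -0.58 with edgeR and -0.88 to -0.59 with DESeq2, where TAP2 was called in 2 of 6 fits (without GST line 8, -0.86, and without NOCT line 12, -0.88). HLA-C ranged from 0.24 to 0.49 with edgeR, and from 0.24 to 0.48 with DESeq2, and was called only without NOCT line 12. HLA-E ranged from -0.00091 to 0.12 with edgeR and from -0.0018 to 0.11 with DESeq2, negative only without NOCT line 4. TAPBP turned positive with spike-in totals (0.13), log2(TPM + 1) (0.064) and log2(TPM + 0.1) (0.067), and ranged from -0.077 to 0.057 with edgeR when lines were left out. With DESeq2 it was positive without GST line 2 (0.047) and without NOCT line 12 (0.026). PSMA3 turned to -0.17 with the neighbour offset. Principal transcript lengths moved the mean level to 105 TPM for HLA-B, 265 for HLA-C, 11.0 for HLA-F, 160 for B2M and 14.8 for TAP1. Beyond these lengths and the smaller samples, the cause of a changed call was not tested. No paired analysis was possible because the lines of the groups share no replicate number (2, 8 and 9 against 4, 11 and 12). Summing identifiers per symbol was not run, since each symbol had 1.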

Other observations

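Class II genes, which encode the molecules that present peptides to CD4+ T cells, were measured at up to 22.8 TPM in these lines (HLA-DQB1 in a NOCT line). Of 11 listed, 8 were tested and none was called by edgeR (3 at an unadjusted p under 0.05), while DESeq2 called 1, HLA-DQB1. Of all genes tested, 13.9% had such an unadjusted p, and DESeq2 called 3.41% of all genes with an adjusted p. HLA-DPB1, the beta chain of HLA-DP, had 9.54 to 22.2 TPM over the lines, and its groups overlapped. HLA-DQB1, the beta chain of HLA-DQ, stood at 7.48 ± 2.90 CPM in the GST and 28.3 ± 6.84 CPM in the NOCT lines (mean ± SD of 3). This was 1.92 on the log2 scale (adjusted p = 0.0679 by edgeR, DESeq2 adjusted p = 5.9e-09). HLA-DQA1, its alpha chain partner, stood at 0.0659 ± 0.0283 and 0.910 ± 0.209 CPM, with an edgeR adjusted p of 0.0563. HLA-DRB1 stood at 2.84 ± 1.20 and 5.07 ± 0.832 CPM (edgeR adjusted p = 0.292). The invariant chain CD74, HLA-DRA and the class II transactivator CIITA stayed below 0.09 CPM on average in both groups and were not tested.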
